A study of Mus musculus and Rattus norvegicus with 60 samples.

Results

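The 44 genes described here are the DNA replication and S-phase genes: the MCM helicase and its loading and activating factors, the replicative polymerases, the sliding clamp and its loader, the enzymes that supply deoxynucleotides, the cyclins and E2F factors of the G1/S step, and the factors that follow the fork to package new DNA. Rows were matched to the members by gene symbol alone, ignoring case. The members themselves were chosen with earlier results of these data known. All 44 are among 20155 mouse genes, and 42 are among 15163 rat genes, where E2f2 and Chaf1a have no row. A low-value filter, set at 10 normalized counts or more in 5 libraries or more, kept all 44 mouse members of 15213 mouse genes and 40 rat members of 11760 rat genes. Prim1 and Dut failed the filter in the rat because Prim1 was listed at 0 to 3.82 and Dut at 0 to 4.85 normalized counts over the 30 rat libraries.

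The study cut out 2 layers of the growth plate by laser, the hypertrophic zone (HZ), where cells enlarge, and the proliferative zone (PZ), where they divide, from C57BL/6 mice and Sprague Dawley rats, and sequenced their RNA. In each species, 6 groups were compared: HZ and PZ of the proximal end of the proximal forelimb phalanx at 1 week of age, HZ and PZ of the proximal tibia at 4 weeks, and HZ and PZ of the proximal tibia at 1 week. Animals were males fed freely, with no treatment or engineered allele named in the labels, each library came from 1 animal, and groups held 5 libraries except the mouse 1-week phalanx PZ, which held 4, since 59 of 60 samples had values. The questions were which genes change as chondrocytes pass from division to enlargement, as the tibial growth plate ages, and between a short and a long bone.

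Reads counted in genes ranged from 19711370 to 41856130 per library in the mouse and from 7808455 to 28994264 in the rat. Outside the ribosomal repeat Rn45s they ranged from 5240960 to 10397185 in the mouse 1-week tibia HZ and from 7808455 to 11054499 in the rat 1-week tibia HZ. Zone markers followed the labels. Summed hypertrophic markers (Col10a1, Mmp13 and Bmp2 in the mouse, 2 of these 3 in the rat) were 164370 to 451757 normalized counts in mouse 1-week tibia HZ libraries, against 2570 to 9425 in PZ libraries, and 18863 to 125515 in rat HZ libraries, against 851 to 1794 in rat PZ libraries. In 2 HZ libraries the proliferative markers (Gdf10, Prelp and Bmp7) stood above the rest of their group: mouse phalanx HZ replicate 5 held 31021 normalized counts, against 790 to 1847 in the other 4, and rat 4-week HZ replicate 3 held 35090, against 6716 to 15561. Outside the 1-week tibia, PZ libraries held more hypertrophic marker counts. They reached 75194 in the mouse 4-week tibia, 20868 in the rat 4-week tibia, 29015 in the mouse phalanx and 55983 in the rat phalanx. Each still lay below every HZ library of its growth plate, the lowest rat 4-week HZ library, replicate 3, being at 25360. HZ captures also held RNA of other cells. The endothelial markers summed to 2715 to 14120 in the mouse 1-week tibia HZ, against 67 to 624 in the PZ, and to 1633 to 9881 in the rat 1-week tibia HZ, against 97.3 to 385 in the PZ.

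A cell copies its DNA once per cycle. In G1, the origin recognition complex, Cdc6 and Cdt1 load the MCM2-7 helicase onto origins, and geminin then blocks Cdt1 so that no origin is licensed again. At the start of S phase, Cdc45, the GINS complex and Mcm10 turn the loaded helicase into a moving fork, polymerase alpha-primase starts each strand, and polymerases delta and epsilon extend it around the clamp PCNA. Transcription of many of these genes is driven by E2F factors when cyclin E and its kinase inactivate the retinoblastoma protein. In the growth plate, columns of flat chondrocytes divide in the PZ, and cells that enter the HZ leave the cycle. In bulk captures such as these, fewer cycling cells and less replication mRNA per cell cannot be told apart.

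Averaged over members, replication mRNA had its lowest group median in the 1-week tibia HZ of both species. Scores there overlapped those of the 4-week tibia HZ in both species, and those of the phalanx HZ in the mouse. The module score of a library is the mean over tested members of the log2 value minus that member's mean over the libraries of its species, and it is given as a description. In the mouse, the median score (lowest to highest) was -0.14 (-0.18 to 0.34) in phalanx HZ and 0.27 (0.14 to 0.51) in phalanx PZ, -0.36 (-0.48 to 0.30) in 4-week tibia HZ and -0.05 (-0.23 to 0.12) in 4-week tibia PZ, and -0.48 (-0.62 to 0.12) in 1-week tibia HZ and 0.36 (-0.01 to 0.49) in 1-week tibia PZ. The mouse zones overlapped in every growth plate. In the rat, it was 0.13 (-0.22 to 0.21) in phalanx HZ and 0.47 (0.16 to 0.62) in phalanx PZ, -0.32 (-0.54 to -0.12) in 4-week tibia HZ and 0.22 (0.18 to 0.62) in 4-week tibia PZ, and -0.91 (-1.39 to -0.27) in 1-week tibia HZ and 0.31 (0.27 to 0.47) in 1-week tibia PZ. Rat zones were apart in the tibia at both ages and overlapped in the phalanx. Rat group medians thus ran from 0.22 to 0.47 over the PZ groups and from -0.91 to 0.13 over the HZ groups.

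**Figure D1:**
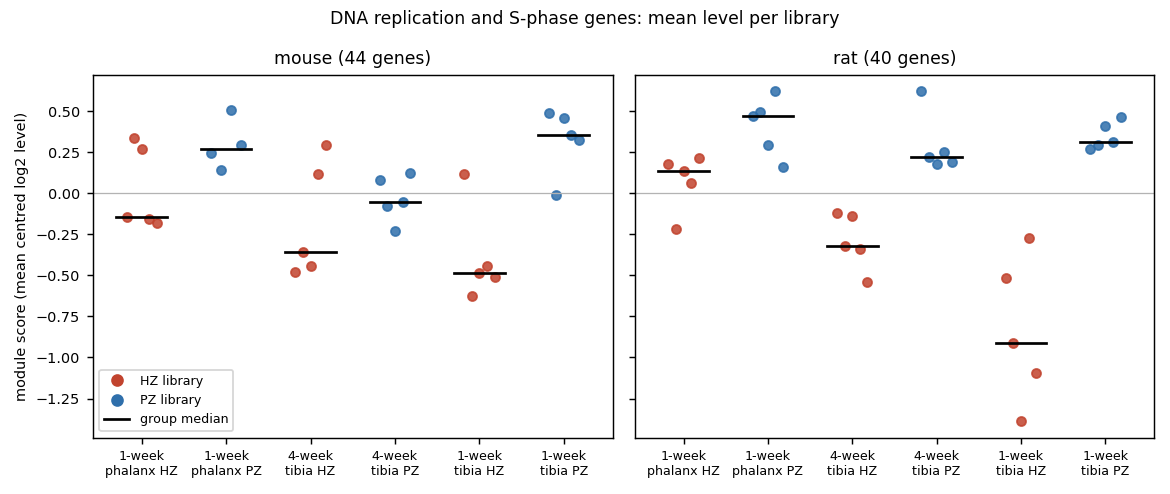
Mean centred log2 value of the replication genes (y axis, log2 units) in each library, by group and species; red points are HZ, blue points are PZ and black bars are group medians. The rat 1-week tibia HZ lies lowest, with a median of -0.91, and mouse 1-week tibia HZ replicate 1 stands at 0.12, above the other 4 libraries of its group.

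Comparing HZ with PZ of the 1-week tibia gave the most member calls of the 3 growth plates in both species, and tests of the differences between growth plates are given further on. In the mouse, 17 of 44 members (38.6%) were lower in the HZ and 0 were higher, where 23.7% of all tested genes were lower and 20.4% were higher. In the rat, 23 of 40 members (57.5%) were lower in the HZ and 0 were higher, where 19% of all tested genes were lower and 22.6% were higher. Calls are genes with a limma adjusted p below 0.05, with Benjamini-Hochberg adjustment over all tested genes and no fold minimum. The median log2 fold change of HZ over PZ was -0.47 over the mouse members and -0.15 over all mouse genes, and -1.14 over the rat members and 0.01 over all rat genes. Of all members tested, 35 of 44 in the mouse and 38 of 40 in the rat had a negative fold change. The groups were fully apart for 8 mouse members, 7 lower and 1 higher in the HZ, and for 18 rat members, all 18 lower in the HZ. The 1 that was higher was mouse Mcm7. The share of all tested genes with groups apart was not counted, so these counts have no background to set them against. By role, the mouse calls took in 5 of 6 polymerase and primase genes, 4 of 6 helicase activators, 3 of 5 licensing genes and 1 of 6 MCM genes, whereas the rat calls took in 3 of 5, 4 of 6, 2 of 5 and 5 of 6 of the same groups.

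**Figure D2:**
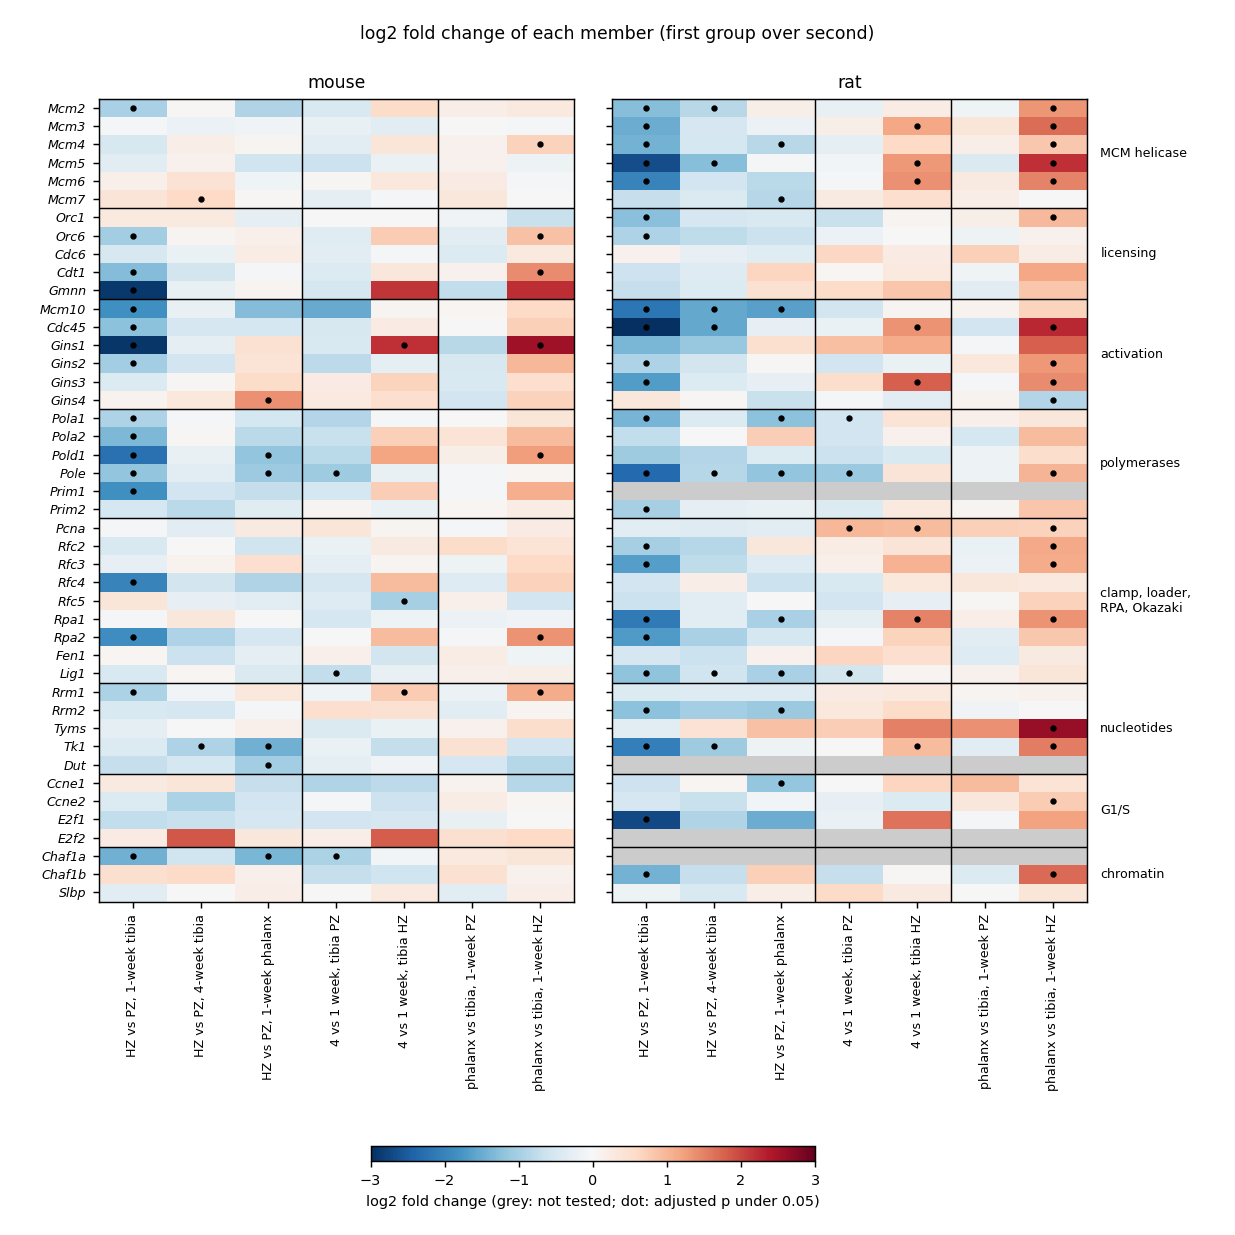
Log2 fold change of each replication gene (rows, by role) in the 7 group comparisons (columns) of each species, first group over second, on a colour scale from -3 to 3; a dot marks an adjusted p under 0.05 and grey marks a gene not tested. Rat Cdc45, at -3.08, lies just past the end of the scale. Blue fills most of the rat column for HZ over PZ of the 1-week tibia, where 23 of 40 members were called lower, and the columns for phalanx over tibia PZ hold no dot.

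The MCM2-7 genes encode the 6 subunits of the ring that unwinds DNA at the fork. In the rat all 6 had a negative fold change of HZ over PZ, and all but Mcm7 were called lower. Mcm5 had 37.9, 47.8, 4.47, 118 and 26.2 in HZ libraries, against 369.6, 163, 167, 181 and 176 in PZ libraries of the rat 1-week tibia, in normalized counts, the unit of every level given here. Mcm5 fell 6.29-fold (log2 fold change -2.65 ± 0.45 SE, adjusted p = 1.46e-05), and the groups did not overlap. Rat Mcm6 had 72.3, 153, 26.8, 252 and 66.4 in HZ libraries, against 274, 346, 467, 313 and 402 in PZ libraries. Mcm6 was 4.03-fold lower (log2 fold change -2.01 ± 0.34 SE, adjusted p = 1.42e-05), with HZ replicate 4 closest to the PZ. Rat Mcm2 had 331, 214, 273, 241 and 296 in HZ libraries, against 895, 769, 489, 518 and 661 in PZ libraries. Mcm2 was 2.42-fold lower (log2 fold change -1.27 ± 0.23 SE, adjusted p = 2.65e-05), and the groups did not overlap. Rat Mcm4 (log2 fold change -1.42 ± 0.22 SE, adjusted p = 3.61e-06) and Mcm3 (log2 fold change -1.48 ± 0.33 SE, adjusted p = 0.000477) also fell. Mcm7 in the rat was at -0.68 ± 0.28 (adjusted p = 0.0524).

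In the mouse, 1 helicase gene was called, and the difference between species was not tested. Mouse Mcm2 had 504, 264, 138, 89.8 and 259 in HZ libraries, against 472, 328, 437, 411 and 462 in PZ libraries. Mcm2 was the single mouse subunit called (log2 fold change -0.98 ± 0.34 SE, adjusted p = 0.0178), with HZ replicate 1 above every PZ library. Mouse Mcm5 had 389, 402, 409, 429.9 and 355 in HZ libraries, against 552, 519.6, 408, 473 and 526 in PZ libraries. Its log2 fold change was -0.31 ± 0.23 (SE, adjusted p = 0.286). Mouse Mcm6 had 541, 455, 377, 409 and 659.6 in HZ libraries, against 409.6, 291, 429.7, 492 and 567 in PZ libraries, at 0.16 ± 0.20 (adjusted p = 0.547). For Mcm7 the mouse HZ libraries all lay above the PZ libraries, at 549, 526, 457, 517 and 476 in the HZ, against 396, 318, 387, 424 and 416 in the PZ, and the difference did not pass the test (log2 fold change 0.38 ± 0.19 SE, adjusted p = 0.0954). The mouse MCM genes thus covered a range from -0.98 ± 0.34 for Mcm2 to 0.38 ± 0.19 for Mcm7.

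Licensing genes load the ring and prevent its second loading. Orc6, the smallest subunit of the origin recognition complex, was lower in the HZ of both species. Mouse Orc6 had 117, 96.5, 131, 75.6 and 105 in HZ libraries, against 289.6, 157, 207, 182 and 271 in PZ libraries (log2 fold change -1.05 ± 0.30 SE, adjusted p = 0.00431). Rat Orc6 had 93, 86, 82.7, 91.1 and 102 in HZ libraries, against 110, 163, 201, 208 and 206 in PZ libraries (log2 fold change -0.92 ± 0.28 SE, adjusted p = 0.00876). The zones did not overlap in either species. Orc1, the subunit with the ATPase that drives loading, was lower in the rat alone among calls (log2 fold change -1.25 ± 0.32 SE, adjusted p = 0.00172) and was at 0.29 ± 0.33 in the mouse (adjusted p = 0.504), and the difference between species was not tested.

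Cdt1, which brings the helicase to the origin, had 66.7, 29.5, 43.6, 128 and 183 in HZ libraries, against 226, 139.8, 176, 157 and 221 in PZ libraries of the mouse tibia. It fell 2.46-fold in the mouse HZ (log2 fold change -1.30 ± 0.43 SE, adjusted p = 0.013), though HZ replicate 5 overlapped the PZ. In rats, Cdt1 had 121, 97.4, 13.4, 66.9 and 63.3 in HZ libraries, against 78.3, 61.8, 98.6, 87.9 and 145 in PZ libraries, which did not pass the test (log2 fold change -0.62 ± 0.48 SE, adjusted p = 0.311). Gmnn encodes geminin, the inhibitor of Cdt1. Mouse Gmnn had 0, 43.3, 0, 68.5 and 39 in HZ libraries, against 90.8, 41.5, 103, 73 and 89.7 in PZ libraries, so 2 HZ libraries were listed at 0 and its fitted fold change of -2.89 ± 0.85 (adjusted p = 0.00599) depends on the count of 1 added before the logarithm. Rat Gmnn had 148, 30.6, 6.7, 346 and 43.2 in HZ libraries, against 20.8, 89, 205, 159.8 and 94.7 in PZ libraries, with HZ replicate 4 the highest of the 10 (log2 fold change -0.70 ± 0.77 SE, adjusted p = 0.498). Cdc6, the loading ATPase that works beside ORC, had 133, 149.6, 227, 94.5 and 49.4 in HZ libraries, against 268, 91.1, 147, 212 and 151 in PZ libraries of the mouse (log2 fold change -0.48 ± 0.46 SE, adjusted p = 0.418). Rat Cdc6 had 199.8, 126, 246, 238 and 122 in HZ libraries, against 131, 151, 216, 216 and 128 in PZ libraries (log2 fold change 0.12 ± 0.32 SE, adjusted p = 0.789). Cdc6 zones overlapped in each species.

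The lowest fold change in each species belonged to a helicase activator. Cdc45 joins the ring and GINS to form the moving helicase. Rat Cdc45 had 53.4, 7.64, 13.4, 45.6 and 9.26 in HZ libraries, against 169, 221, 172, 146 and 142 in PZ libraries. It fell 8.43-fold (log2 fold change -3.08 ± 0.43 SE, adjusted p = 6.21e-07), and the groups did not overlap. Mouse Cdc45 had 197, 149.6, 131, 66.1 and 19.5 in HZ libraries, against 254, 211, 225, 207 and 151 in PZ libraries. It fell 2.35-fold (log2 fold change -1.23 ± 0.44 SE, adjusted p = 0.023), with HZ replicate 1 inside the PZ range and HZ replicate 5 the lowest.

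Mcm10, which helps the activated helicase leave the origin, fell in both species. Rat Mcm10 had 131, 55.4, 148, 75.5 and 74.1 in HZ libraries, against 425, 403, 414, 376 and 446 in PZ libraries (log2 fold change -2.18 ± 0.31 SE, adjusted p = 9.83e-07). Mouse Mcm10 had 237, 63, 96.5, 78 and 11.7 in HZ libraries, against 331, 239.9, 269.7, 232 and 169.7 in PZ libraries (log2 fold change -1.83 ± 0.60 SE, adjusted p = 0.013). Rat zones were apart, while mouse HZ replicate 1 lay inside the PZ range. Of the 4 GINS subunits, Gins2 was called in both species. Mouse Gins2 had 34.7, 165, 182, 80.3 and 79.4 in HZ libraries, against 303, 95.6, 238, 168 and 226 in PZ libraries (log2 fold change -1.05 ± 0.44 SE, adjusted p = 0.049). Rat Gins2 had 294, 138, 257, 272 and 174 in HZ libraries, against 514, 335, 444, 390.2 and 419 in PZ libraries (log2 fold change -0.93 ± 0.30 SE, adjusted p = 0.0134). The rat zones were apart and the mouse zones overlapped. Gins1 was the member with the lowest mouse fold change, at 37.3, 3.94, 18.4, 0 and 10.4 in HZ libraries, against 59.4, 46, 56.7, 63.1 and 95 in PZ libraries (log2 fold change -2.91 ± 0.66 SE, adjusted p = 0.000535), which includes an HZ library listed at 0. Rat Gins1 had 68.9, 0, 8.94, 68.3 and 64.8 in HZ libraries, against 34.7, 39.5, 22.5, 113 and 91 in PZ libraries and did not pass the test (log2 fold change -1.36 ± 0.76 SE, adjusted p = 0.155). Gins3 was lower in the rat HZ (log2 fold change -1.68 ± 0.56 SE, adjusted p = 0.0159), and Gins4 was not called in either species, with mouse Gins4 at 0.11 ± 0.34 (adjusted p = 0.812) and rat Gins4 at 0.33 ± 0.33 (adjusted p = 0.443).

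Polymerase genes were the group with the most mouse calls. Pole encodes the catalytic subunit of polymerase epsilon, which copies the leading strand. Rat Pole had 277, 241, 87.1, 469.9 and 187 in HZ libraries, against 1338, 937, 1344, 1017 and 1025 in PZ libraries. It was 5.07-fold lower (log2 fold change -2.34 ± 0.27 SE, adjusted p = 1.24e-08), the smallest adjusted p of any member in any comparison, and the groups did not overlap. Mouse Pole had 728, 207, 586, 196 and 239 in HZ libraries, against 993, 569, 861, 820.1 and 648 in PZ libraries. It was 2.28-fold lower (log2 fold change -1.19 ± 0.31 SE, adjusted p = 0.00238), with HZ replicates 1 and 3 inside the PZ range. Pola1, the catalytic subunit of polymerase alpha that starts each strand with primase, had 224, 290.4, 279, 346 and 201 in HZ libraries, against 574, 769, 855, 614 and 709 in PZ libraries of the rat (log2 fold change -1.40 ± 0.20 SE, adjusted p = 7.44e-07). Mouse Pola1 had 597, 346, 276, 194 and 190 in HZ libraries, against 644, 396, 608, 603 and 545 in PZ libraries (log2 fold change -0.92 ± 0.30 SE, adjusted p = 0.0114). Pola1 zones were apart in the rat and overlapped in the mouse through HZ replicate 1.

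Pold1, the catalytic subunit of polymerase delta, had the smallest adjusted p of the mouse members. Mouse Pold1 had 82.7, 74.8, 199.8, 80.3 and 7.81 in HZ libraries, against 327, 269, 344, 248 and 275 in PZ libraries (log2 fold change -2.23 ± 0.44 SE, adjusted p = 9.56e-05). The mouse zones were apart. Rat Pold1 had 41.3, 208, 228, 25.6 and 43.2 in HZ libraries, against 224, 142, 116, 153 and 168 in PZ libraries, with HZ replicate 2 inside the PZ range and HZ replicate 3 above it, and was not called (log2 fold change -1.07 ± 0.47 SE, adjusted p = 0.0658). Prim1 encodes the subunit of primase that makes the RNA primer. Mouse Prim1 had 453, 9.84, 68.9, 139 and 91.1 in HZ libraries, against 244, 249.9, 403, 369 and 277 in PZ libraries (log2 fold change -1.83 ± 0.49 SE, adjusted p = 0.00303), from the highest value of the 10 libraries in HZ replicate 1 to the lowest in HZ replicate 2. Pola2, the accessory subunit of polymerase alpha, fell in the mouse (log2 fold change -1.34 ± 0.35 SE, adjusted p = 0.00204) and Prim2, the large primase subunit, fell in the rat (log2 fold change -0.99 ± 0.36 SE, adjusted p = 0.024).

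Genes of the clamp, its loader, single-strand binding and Okazaki fragment processing were called more often in the rat (5 of 9) than in the mouse (2 of 9), a contrast between species that was not tested. Lig1 encodes the ligase that seals Okazaki fragments. Rat Lig1 had 594, 607, 753, 881 and 732 in HZ libraries, against 1502, 1734, 1918, 1684 and 1404 in PZ libraries (log2 fold change -1.21 ± 0.14 SE, adjusted p = 2.18e-08). Mouse Lig1 had 821, 388, 469, 754 and 561 in HZ libraries, against 1144, 587, 805, 862 and 666 in PZ libraries (log2 fold change -0.46 ± 0.24 SE, adjusted p = 0.114). The rat zones were apart, and the mouse zones overlapped. Rpa2, the middle subunit of the single-strand binding complex RPA, fell in both species and its zones did not overlap in either. Mouse Rpa2 had 157, 197, 11.5, 66.1 and 85.9 in HZ libraries, against 277, 248, 256, 236 and 351 in PZ libraries (log2 fold change -1.87 ± 0.45 SE, adjusted p = 0.00108). Rat Rpa2 had 79.2, 80.2, 38, 89.7 and 131 in HZ libraries, against 168, 352, 314, 189 and 303 in PZ libraries (log2 fold change -1.70 ± 0.37 SE, adjusted p = 0.000391). Rpa1, the large subunit, was 4.33-fold lower in the rat HZ (log2 fold change -2.11 ± 0.37 SE, adjusted p = 2e-05) and was at -0.04 ± 0.27 in the mouse (adjusted p = 0.93).

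Rfc3, a subunit of the clamp loader, had 96.5, 182, 38, 157 and 18.5 in HZ libraries, against 201, 168, 221, 313 and 285 in PZ libraries of the rat (log2 fold change -1.66 ± 0.43 SE, adjusted p = 0.00235). Mouse Rfc3 had 37.3, 110.2, 55.1, 28.3 and 84.6 in HZ libraries, against 90.8, 44.2, 92.3, 59.8 and 56.8 in PZ libraries (log2 fold change -0.24 ± 0.44 SE, adjusted p = 0.698). Rfc4 was called in the mouse (log2 fold change -2.003 ± 0.62 SE, adjusted p = 0.00856) and Rfc2 in the rat (log2 fold change -0.998 ± 0.36 SE, adjusted p = 0.0263), and Rfc5 in neither (adjusted p = 0.358 and 0.0829). Pcna, the clamp and a common marker of cycling cells, did not separate the zones. Mouse Pcna had 501, 606, 289, 331 and 448 in HZ libraries, against 333, 336, 496, 416 and 624 in PZ libraries (log2 fold change -0.03 ± 0.25 SE, adjusted p = 0.935). Rat Pcna had 389, 185, 518, 646 and 338 in HZ libraries, against 351, 486, 598, 394 and 643 in PZ libraries (log2 fold change -0.33 ± 0.25 SE, adjusted p = 0.302). Fen1, the nuclease that trims Okazaki flaps, was the same in this respect, with 288, 102, 34.5, 52 and 124 in HZ libraries, against 95.1, 69.5, 72.2, 107 and 102 in PZ libraries of the mouse (log2 fold change 0.07 ± 0.45 SE, adjusted p = 0.92). Rat Fen1 had 241, 76.4, 148, 202 and 207 in HZ libraries, against 149, 201, 247, 288 and 308 in PZ libraries (log2 fold change -0.50 ± 0.35 SE, adjusted p = 0.263).

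Among genes of nucleotide supply, Tk1, the thymidine kinase that is made in S phase, gave the largest fall in the rat. Rat Tk1 had 496, 474, 107, 430 and 236 in HZ libraries, against 1424, 989.9, 1396, 1178 and 1317 in PZ libraries. It was 4.11-fold lower (log2 fold change -2.04 ± 0.28 SE, adjusted p = 5.93e-07), and the groups did not overlap. Mouse Tk1 had 317, 179, 191, 368 and 119.7 in HZ libraries, against 298, 249.9, 306, 308 and 289 in PZ libraries (log2 fold change -0.41 ± 0.29 SE, adjusted p = 0.256), with HZ replicates 1 and 4 above every PZ library. Rrm1 and Rrm2 encode the large and small subunits of ribonucleotide reductase, and each was called in a single species. Mouse Rrm1 had 397, 374, 326, 300 and 546 in HZ libraries, against 604, 537, 894, 896 and 852 in PZ libraries (log2 fold change -0.96 ± 0.22 SE, adjusted p = 0.000571). Rat Rrm1 had 381, 537, 565, 662 and 629.9 in HZ libraries, against 509, 751, 862, 838 and 753 in PZ libraries (log2 fold change -0.42 ± 0.19 SE, adjusted p = 0.0752). Rrm1 zones overlapped in both species. Mouse Rrm2 had 651, 177, 239, 156 and 328 in HZ libraries, against 362, 264, 366, 490.3 and 398 in PZ libraries (log2 fold change -0.45 ± 0.32 SE, adjusted p = 0.266). Rat Rrm2 had 86.1, 49.7, 22.3, 137 and 91.1 in HZ libraries, against 126, 158, 166, 144 and 188 in PZ libraries (log2 fold change -1.23 ± 0.39 SE, adjusted p = 0.0117).

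Tyms, which makes thymidylate, did not pass the test in either species. Mouse Tyms had 232, 193, 225, 364 and 368 in HZ libraries, against 361, 292, 325, 368 and 268 in PZ libraries (log2 fold change -0.26 ± 0.27 SE, adjusted p = 0.453). Rat Tyms had 164, 139, 0, 141 and 20.1 in HZ libraries, against 65.4, 47, 20, 38.6 and 86.3 in PZ libraries, with 3 HZ libraries above every PZ library and 1 at 0 (log2 fold change -0.35 ± 0.81 SE, adjusted p = 0.763). Dut, the dUTPase that keeps uracil out of DNA, had 149, 86.6, 113, 364 and 225 in HZ libraries, against 324, 278, 254, 235 and 254 in PZ libraries of the mouse (log2 fold change -0.70 ± 0.38 SE, adjusted p = 0.131).

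The G1/S regulators held a single call, rat E2f1. E2f1, a transcription factor of the S-phase program, had 20.7, 57.3, 125, 65.5 and 1.54 in HZ libraries, against 194, 152, 233, 209 and 222 in PZ libraries of the rat (log2 fold change -2.71 ± 0.64 SE, adjusted p = 0.000932). Mouse E2f1 had 349, 152, 106, 116 and 338 in HZ libraries, against 376, 266, 370.2, 252 and 310.3 in PZ libraries (log2 fold change -0.74 ± 0.35 SE, adjusted p = 0.0883). Rat zones were apart, and mouse HZ replicates 1 and 5 lay inside the PZ range. E2f2, a related factor that is abundant in erythroid precursors, had 1843, 66.9, 266, 33.1 and 556 in HZ libraries, against 239, 53.2, 285, 261 and 286 in PZ libraries of the mouse (log2 fold change 0.24 ± 0.81 SE, adjusted p = 0.839). HZ replicate 1, the highest E2f2 library, also held the most erythroid marker counts of its group, 11893, against 963 to 4443 in the other 4 HZ libraries. Cyclin E1, from Ccne1, had 363, 149.6, 163, 56.7 and 63.8 in HZ libraries, against 81, 125, 109, 101 and 116 in PZ libraries of the mouse (log2 fold change 0.26 ± 0.44 SE, adjusted p = 0.66). Rat Ccne1 had 86.1, 43.9, 148, 45.6 and 38.6 in HZ libraries, against 129.8, 93.9, 101, 67.9 and 102 in PZ libraries (log2 fold change -0.61 ± 0.39 SE, adjusted p = 0.211). Cyclin E2, from Ccne2, had 85.3, 45.3, 75.8, 82.7 and 53.3 in HZ libraries, against 81, 96.5, 105, 83 and 77.8 in PZ libraries of the mouse (log2 fold change -0.40 ± 0.43 SE, adjusted p = 0.471). Rat Ccne2 had 716, 642, 648, 571 and 784 in HZ libraries, against 1303, 963, 948, 794 and 812 in PZ libraries (log2 fold change -0.50 ± 0.27 SE, adjusted p = 0.134). Every rat Ccne2 HZ library lay below every PZ library, although the difference did not pass the adjusted threshold.

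Each chromatin assembly subunit was called in 1 species, though Chaf1a has no row in the rat and could not be called there. Chaf1a, the large subunit of the histone chaperone CAF-1, was 2.73-fold lower in the mouse HZ, at 141, 228, 156, 314 and 139 in HZ libraries, against 707, 443, 538, 430.5 and 469.6 in PZ libraries (log2 fold change -1.45 ± 0.29 SE, adjusted p = 0.000106). Chaf1b, the middle subunit, had 164, 80.2, 58.1, 177 and 78.7 in HZ libraries, against 421, 271, 229.6, 310.3 and 177 in PZ libraries of the rat (log2 fold change -1.41 ± 0.30 SE, adjusted p = 0.000322). Mouse Chaf1b had 371, 262, 199.8, 262 and 156 in HZ libraries, against 211, 147, 219, 133 and 166 in PZ libraries (log2 fold change 0.48 ± 0.34 SE, adjusted p = 0.263). The zones were apart for both called CAF-1 genes, though for rat Chaf1b the highest HZ library (176.6) and the lowest PZ library (177.2) nearly met. Slbp, which binds the stem-loop of histone mRNA, did not differ past the threshold, at 229, 108, 227, 139 and 196 in HZ libraries, against 224, 205, 243, 238 and 174 in PZ libraries of the mouse (log2 fold change -0.31 ± 0.28 SE, adjusted p = 0.393). Rat Slbp had 208, 367, 179, 364 and 192 in HZ libraries, against 220, 251, 319.5, 341 and 277 in PZ libraries (log2 fold change -0.16 ± 0.28 SE, adjusted p = 0.684).

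Called lower in the HZ of the 1-week tibia in both species were 8 members: Mcm2, Orc6, Mcm10, Cdc45, Gins2, Pola1, Pole and Rpa2. Of the 17 mouse calls, 12 held when each library was left out in turn. Without a single library, adjusted p reached 0.182 for Gins2, 0.137 for Cdc45, 0.092 for Mcm2, 0.0691 for Mcm10 and 0.0594 for Cdt1. HZ replicate 4 was among the libraries that ended the calls of Gins2, Cdc45 and Mcm2, HZ replicate 5 ended that of Mcm10 and HZ replicate 2 that of Cdt1. Of the 23 rat calls, 18 held, and Rfc2 (0.0993), Gins3 (0.0748), Prim2 (0.0747), Rrm2 (0.0637) and Gins2 (0.0509) did not, without HZ replicate 1, 2, 3 or 5 or PZ replicate 3 or 5. Markers of other cells moved with the zone. Macrophage and endothelial sums were apart between the zones in every growth plate of both species. A fit with these markers as covariates therefore cannot separate them from the zone. All 7 macrophage markers were listed, none at 0 throughout, and summed to 3912 to 5573 in the mouse HZ, against 384 to 1335 in the PZ, and to 2739 to 9493 in the rat HZ, against 383 to 697 in the PZ. With macrophage, endothelial and osteoblast markers as covariates, an alternative chosen after the data were seen, the counts were 0 mouse members and 14 rat members, and the mouse log2 estimates of Cdc45, Mcm10 and Pole turned positive, at 0.91, 0.91 and 0.43 (adjusted p = 0.785, 0.851 and 0.853).

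**Figure D3:**
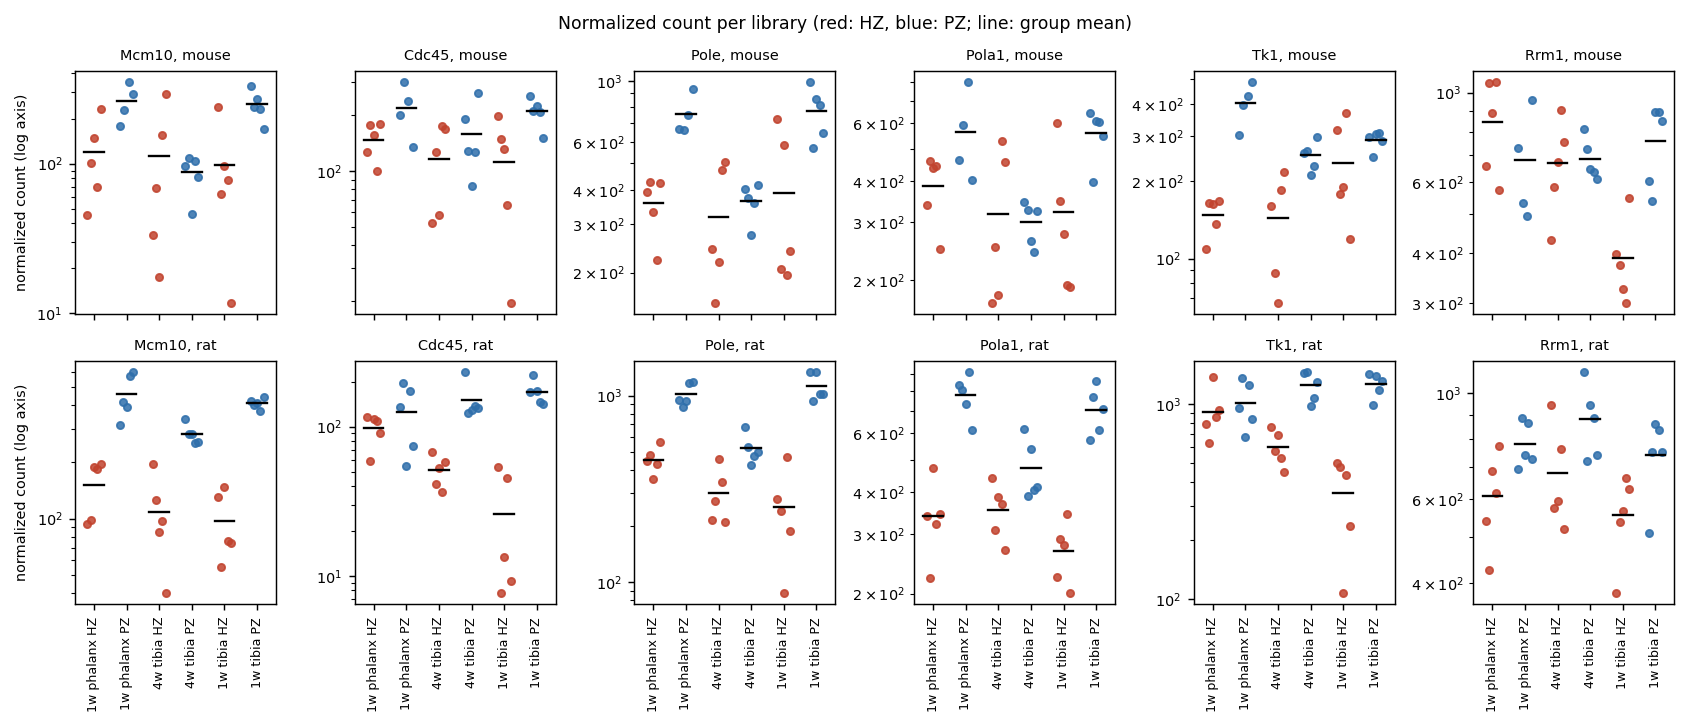
Normalized counts of Mcm10, Cdc45, Pole, Pola1, Tk1 and Rrm1 (y axes, log scale) in each library, by group, with HZ in red and PZ in blue and a line at the group mean. Rat Cdc45 lies at 7.64 to 53.4 in the 1-week tibia HZ, against 142 to 221 in the PZ.

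The cell cycle genes outside the members moved with them in the 1-week tibia. Of 26 mouse genes of G2 and mitosis, 20 were lower in the HZ and 0 were higher, and of 25 rat genes, 25 were lower. The mitotic kinase gene Aurkb was at -2.03 ± 0.25 in the mouse (SE, adjusted p = 4.75e-08) and -2.07 ± 0.26 in the rat (adjusted p = 6.81e-08). Of 43 other replication genes in the mouse, 17 were lower and 2 were higher, Top1 and Samhd1. In the rat, 21 of 36 were lower and 2 were higher. Samhd1 degrades deoxynucleotides in cells that do not divide. Other E2F targets, such as Brca2, a gene of homologous recombination, were lower in 18 of 30 mouse genes and in 21 of 25 rat genes, with Brca2 at -1.36 ± 0.24 in the mouse (adjusted p = 1.9e-05) and -2.60 ± 0.31 in the rat (adjusted p = 3.56e-08). These lists are not the members and were chosen from textbook knowledge with earlier results of these data known.

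Because several members moved together, the mouse sequence upstream of their starts was searched for E2F-type letters. RefSeq windows of 250 bases before to 50 bases after the start, on GRCm38.p6, were at hand for 35 of 44 members. The letters TTTCGCGC, TTTGGCGC, TTTCCCGC or TTTGCCGC, on either strand and allowing overlapping matches, lay in 13 of 35 members (37.1%) and in 704 of 27025 genes (2.6%). The 13 were Cdc6, Cdt1, E2f2, Gins3, Lig1, Mcm3, Mcm5, Mcm6, Mcm7, Orc1, Pola1, Pold1 and Rfc3. The stretches of 30 bases below, from 2 helicase subunits and a polymerase, show such matches in capitals, 5′ to 3′ on the strand of the gene.
Mcm5, chr8:75109347-75109376, plus strand: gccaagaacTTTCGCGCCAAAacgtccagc
Mcm6, chr1:128359795-128359824, minus strand: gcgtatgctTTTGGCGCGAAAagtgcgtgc
Pola1, chrX:93632275-93632304, minus strand: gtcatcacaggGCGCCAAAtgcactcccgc
In Mcm5 and Mcm6 a match on each strand overlaps to give 1 longer run, 141 to 153 and 98 to 110 bases before the start, and the Pola1 match lies 130 to 138 bases before it. CCAAT lay in 21 of the 35 member windows (60%) and in 41.1% of all genes, GGGCGG in 27 (77.1%) and in 38.2%, and TTTGAA in 5 (14.3%) and in 20.2%. In the 1-week tibia, 3 of 13 mouse members with E2F-type letters and 10 of 22 without them were lower in the HZ, and 8 of 12 rat members with the letters in the mouse and 10 of 19 without them were lower. A match is a description of the letters and not of a bound site.

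The comparison of HZ with PZ was repeated in the tibia at 4 weeks. In the mouse, 1 of 44 members (2.27%) was higher and 1 was lower in the HZ, where 18.6% of all tested genes were higher and 16.6% were lower. In the rat, 7 of 40 members (17.5%) were lower and 0 were higher, where 7.82% of all tested genes were lower and 13.5% were higher. Median log2 fold changes were -0.18 over mouse members and -0.03 over all mouse genes, and -0.54 over rat members and 0.01 over all rat genes. Tk1 was the member lower in both species. Mouse Tk1 had 161, 88.1, 67, 184 and 218 in HZ libraries, against 258, 263, 213, 229.9 and 299 in PZ libraries (log2 fold change -0.93 ± 0.29 SE, adjusted p = 0.0117). Rat Tk1 had 766, 573, 690.2, 526 and 446 in HZ libraries, against 1446, 1465, 971, 1074 and 1297 in PZ libraries (log2 fold change -1.07 ± 0.28 SE, adjusted p = 0.00596). The rat zones did not overlap, and mouse HZ replicate 5 lay just inside the PZ range. Mcm7 was the mouse member higher in the HZ, at 393, 329, 478, 786 and 549 in HZ libraries, against 336, 309.8, 285, 325 and 342 in PZ libraries (log2 fold change 0.60 ± 0.19 SE, adjusted p = 0.0116).

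The other rat members lower at 4 weeks were Mcm10, Lig1, Mcm2, Cdc45, Pole and Mcm5. Rat Mcm10 had 196, 126, 84.4, 97.4 and 40 in HZ libraries, against 340.2, 282, 282, 252 and 255 in PZ libraries (log2 fold change -1.53 ± 0.31 SE, adjusted p = 0.000484). Rat Lig1 had 836, 754, 833, 640.1 and 690.4 in HZ libraries, against 1418, 1188, 891, 1045 and 1135 in PZ libraries (log2 fold change -0.59 ± 0.14 SE, adjusted p = 0.00261). Neither gene's zones overlapped. Cdc45 was at -1.54 ± 0.43, Mcm2 at -0.84 ± 0.23, Mcm5 at -1.28 ± 0.45 and Pole at -0.84 ± 0.27 (SE, adjusted p = 0.00892, 0.00673, 0.04 and 0.021). All 7 had also been called lower in the HZ of the rat 1-week tibia. Without a single library, adjusted p reached 0.0691 for mouse Mcm7 (HZ replicate 4), 0.0605 for mouse Tk1 (HZ replicate 3), 0.0995 for rat Mcm5 (8 of the 10 libraries ended its call) and 0.0673 for rat Pole (HZ replicates 1 and 5, PZ replicate 1). The mouse count of 2 became 1 without 4-week HZ replicate 3 or 4. These counts depended on the model: the mouse count was 9 with array weights or with only the compared groups fitted, 5 by limma-voom, 4 with quantile scaling and 0 with a 2-fold minimum, and the rat count of 7 was 17, 15, 13, 14 and 4 under the same settings. Macrophage, endothelial and osteoblast covariates gave 0 in the mouse and 2 in the rat. In the mouse 4-week HZ, replicates 4 and 5 had the highest scores, 0.12 and 0.30, and the most granulocyte marker counts, 16154 and 24389, against 7069 to 11681 in the other 3. Whether these cells contributed member mRNA was not tested.

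In the 1-week phalanx, 5 of 44 mouse members (11.4%) were lower in the HZ and 1 was higher, where 17.2% of all tested genes were lower and 17.9% were higher. In the rat, 9 of 40 members (22.5%) were lower and 0 were higher, where 17.7% of all tested genes were lower and 22.9% were higher. Median log2 fold changes were -0.28 over mouse members and -0.04 over all mouse genes, and -0.36 over rat members and 0.08 over all rat genes. Pole was the member lower in both species. Mouse Pole had 393, 428, 333, 222 and 423 in HZ libraries, against 670, 665, 753 and 938 in PZ libraries (log2 fold change -1.10 ± 0.33 SE, adjusted p = 0.00997). Rat Pole had 443, 479, 358, 428 and 560.5 in HZ libraries, against 948, 869, 935, 1172 and 1183 in PZ libraries (log2 fold change -1.17 ± 0.27 SE, adjusted p = 0.000673). Its zones were apart in both.

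The smallest adjusted p in the mouse phalanx belonged to Tk1, at 108, 165, 163, 137 and 167 in HZ libraries, against 304, 397, 433 and 490 in PZ libraries (log2 fold change -1.45 ± 0.31 SE, adjusted p = 0.000386). Chaf1a had 336, 189, 277, 213 and 212 in HZ libraries, against 486, 495, 825 and 752 in PZ libraries (log2 fold change -1.37 ± 0.30 SE, adjusted p = 0.000587). Gins4, a GINS subunit, was higher in the HZ, at 238, 243, 163, 317 and 145 in HZ libraries, against 60.1, 118, 61 and 101 in PZ libraries (log2 fold change 1.37 ± 0.36 SE, adjusted p = 0.00261). The zones were apart for each of these 3 genes. Dut and Pold1 were lower as well, at -1.05 ± 0.40 and -1.18 ± 0.47 (SE, adjusted p = 0.0386 and 0.0479), and single libraries raised these to 0.192 and 0.113: 4 and 7 of the 9 libraries ended the calls of Dut and Pold1.

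Rat phalanx members called lower were Lig1, Pola1, Mcm10, Pole, Mcm4, Mcm7, Ccne1, Rrm2 and Rpa1. Rat Lig1 had 769, 985, 1046, 830.3 and 905 in HZ libraries, against 1824, 1721, 1864, 1837 and 1676 in PZ libraries (log2 fold change -0.98 ± 0.14 SE, adjusted p = 1.67e-06). Rat Pola1 had 339, 223, 473, 321 and 344 in HZ libraries, against 834, 808, 732, 914 and 611 in PZ libraries (log2 fold change -1.22 ± 0.20 SE, adjusted p = 1.03e-05). Rat Mcm10 had 93.1, 97.8, 187, 183 and 195 in HZ libraries, against 314, 416, 393, 573 and 606 in PZ libraries (log2 fold change -1.63 ± 0.31 SE, adjusted p = 9.92e-05). All 3 had HZ libraries entirely below PZ libraries. Mcm4 was at -0.83 ± 0.22, Mcm7 at -0.85 ± 0.28, Ccne1 at -1.15 ± 0.39, Rrm2 at -1.12 ± 0.39 and Rpa1 at -0.97 ± 0.37 (SE, adjusted p = 0.00324, 0.0157, 0.0172, 0.021 and 0.0336). The count of 9 became 5 without phalanx PZ replicate 1 or with a 2-fold minimum, 14 with array weights or with quantile scaling, and 4 with macrophage, endothelial and osteoblast covariates, which gave 0 in the mouse, where 6 had been called. Without single libraries, adjusted p reached 0.0524 for Ccne1, 0.0694 for Mcm7, 0.0859 for Rrm2 and 0.108 for Rpa1. Mcm2, Cdc45, Tk1 and Mcm5, which had fallen in the rat tibia, were at 0.18 ± 0.23, -0.25 ± 0.43, -0.15 ± 0.28 and -0.03 ± 0.45 in the rat phalanx.

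**Figure D4:**
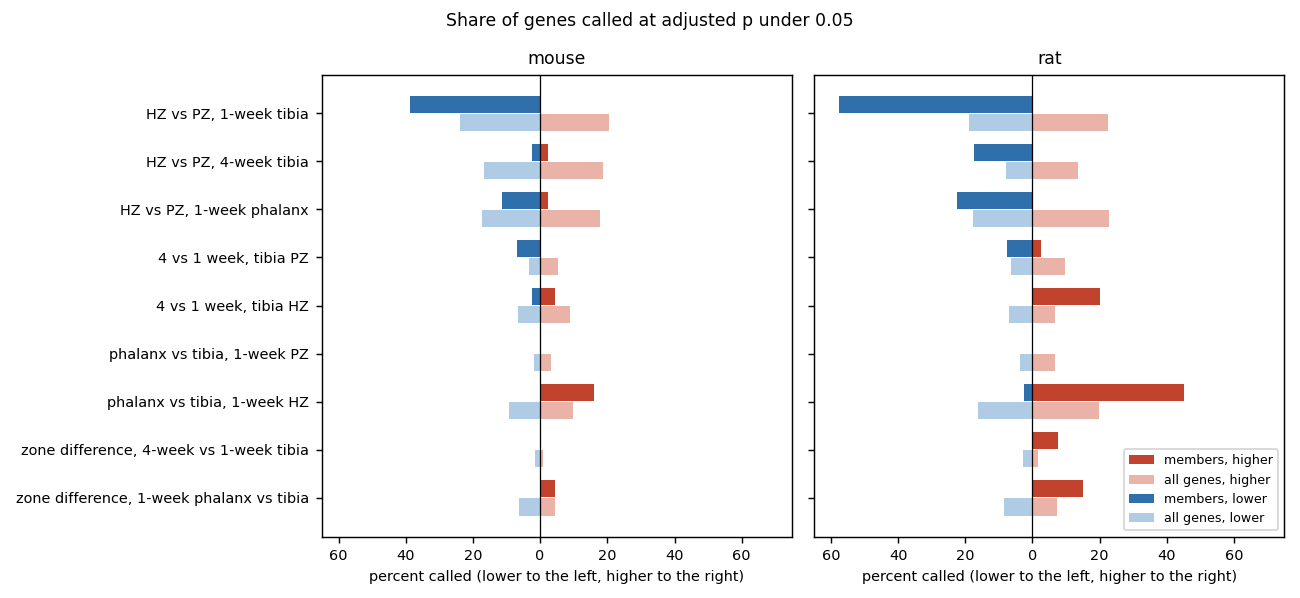
Share of the replication genes (dark bars) and of all tested genes (light bars) called higher, to the right, or lower, to the left, in each of the comparisons (percent, x axis), by species. The longest member bar is the 57.5% called lower in the HZ of the rat 1-week tibia, where 19% of all tested genes were lower.

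Whether the zone difference itself differed between growth plates was tested as an interaction. For the phalanx minus the 1-week tibia, 6 of 40 rat members were called and all 6 were positive, where 7.33% of all tested genes were positive and 8.57% were negative. The 6 were Chaf1b, Tk1, Cdc45, Mcm2, Mcm5 and Pole. Cdc45 had a zone difference of -0.25 ± 0.43 in the phalanx and -3.08 ± 0.43 in the tibia, a difference of 2.82 ± 0.61 (SE, adjusted p = 0.00162). Tk1 had -0.15 ± 0.28 in the phalanx and -2.04 ± 0.28 in the tibia, which differed by 1.89 ± 0.40 (adjusted p = 0.00137). For Chaf1b the values were 0.71 ± 0.30 and -1.41 ± 0.30, which differed by 2.12 ± 0.43 (adjusted p = 0.000796). All 6 had a lower fold change of HZ over PZ in the tibia than in the phalanx, and for Chaf1b and Mcm2 the phalanx value was positive. In the mouse, 2 of 44 members were called, both positive, where 4.38% of all tested genes were positive and 6.19% were negative. Rrm1 had 0.33 ± 0.23 in the phalanx and -0.96 ± 0.22 in the tibia, which differed by 1.29 ± 0.32 (adjusted p = 0.00772). Gins1 had 0.46 ± 0.70 and -2.91 ± 0.66, which differed by 3.37 ± 0.96 (adjusted p = 0.0205). No member was called in both species. The mouse count of 2 became 5 with scaling by the total without Rn45s and 1 with only the compared groups fitted. That scaling called 1928 of all tested mouse genes positive, against 667 in the main fit.

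For the 4-week minus the 1-week tibia, 3 of 40 rat members were called and all 3 were positive, where 1.53% of all tested genes were positive and 2.82% were negative. Pole had -0.84 ± 0.27 at 4 weeks and -2.34 ± 0.27 at 1 week, which differed by 1.499 ± 0.38 (adjusted p = 0.0155). Pola1 differed by 0.99 ± 0.28 (adjusted p = 0.0352) and Rpa1 by 1.77 ± 0.52 (adjusted p = 0.0444). The last 2 were lost without 11 and 15 of the 20 libraries, at adjusted p up to 0.0836 and 0.0948. In the mouse, 0 of 44 members were called by limma, where 0.841% of all tested genes were positive and 1.6% were negative, 9 members had an unadjusted p under 0.05, limma-voom, array weights and a pseudocount of 16 called 1 each, and scaling by the total without Rn45s called 5. That scaling called 720 of all tested mouse genes positive, against 128 in the main fit. The rat count of 3 became 6 with array weights and 1 by limma-voom or with either set of marker covariates.

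Age was compared within each zone of the tibia. These comparisons and those between bones share their 1-week tibia libraries. In the PZ, 3 of 44 mouse members were lower at 4 weeks and 0 were higher, where 3.39% of all tested genes were lower and 5.19% were higher. In the rat PZ, 3 of 40 members were lower and 1 was higher, where 6.45% of all tested genes were lower and 9.63% were higher. Pole and Lig1 were lower in both species. Mouse Pole had 405, 375, 274, 359 and 418 in 4-week libraries, against 993, 569, 861, 820.1 and 648 in 1-week libraries (log2 fold change -1.07 ± 0.31 SE, adjusted p = 0.0266). Rat Pole had 676, 530.1, 424, 474 and 499.9 in 4-week libraries, against 1338, 937, 1344, 1017 and 1025 in 1-week libraries (log2 fold change -1.12 ± 0.27 SE, adjusted p = 0.00305). Ages did not overlap in either species. Mouse Lig1 had 452, 542, 390.2, 461 and 526 in 4-week libraries, against 1144, 587, 805, 862 and 666 in 1-week libraries (log2 fold change -0.75 ± 0.24 SE, adjusted p = 0.0422). Rat Lig1 had 1418, 1188, 891, 1045 and 1135 in 4-week libraries, against 1502, 1734, 1918, 1684 and 1404 in 1-week libraries (log2 fold change -0.55 ± 0.14 SE, adjusted p = 0.00662).

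Chaf1a was the other mouse member lower in the PZ at 4 weeks, at 329, 285, 205, 251 and 272 in 4-week libraries, against 707, 443, 538, 430.5 and 469.6 in 1-week libraries (log2 fold change -0.94 ± 0.29 SE, adjusted p = 0.035), and Pola1 the other rat member (log2 fold change -0.58 ± 0.20 SE, adjusted p = 0.041). Pcna rose in the rat PZ, at 1457, 653, 1066, 1020 and 808 in 4-week libraries, against 351, 486, 598, 394 and 643 in 1-week libraries (log2 fold change 1.00 ± 0.25 SE, adjusted p = 0.00438), and every 4-week library lay above every 1-week library. Marrow markers were also higher in the rat 4-week PZ: erythroid markers (7 of 7 tested called higher) summed to 3741 to 14563 in 4-week libraries, against 420.5 to 754 in 1-week libraries, and granulocyte markers (6 of 6) to 793 to 5344, against 32.5 to 190.4. Replicate 1 was the highest 4-week PZ library for Pcna and for both marker sums, and with marrow markers as covariates Pcna was at 1.07 ± 0.59 (SE, adjusted p = 0.354). Both sums were apart between the ages in the rat PZ, so this fit cannot separate the markers from age. In the mouse PZ, Pcna was at 0.37 ± 0.25 (adjusted p = 0.439). The mouse groups were apart for 10 members, all lower at 4 weeks, of which 3 were called. How many of all tested genes had groups apart was not counted. None of the 3 mouse calls held against leaving out every library in turn. The mouse count of 3 became 0 without 4-week PZ replicate 3, 1-week PZ replicate 1 or 1-week PZ replicate 3, and 1 without 4-week PZ replicate 4, 4-week PZ replicate 5 or 1-week PZ replicate 4. Without single libraries, adjusted p reached 0.156 for Lig1, 0.121 for Chaf1a, 0.085 for Pole and, in the rat, 0.118 for Pola1. The mouse count became 16 with the PZ libraries of the 2 ages alone in the fit, 14 with array weights and 0 with marrow markers as covariates, which gave 2 in the rat, where 4 had been called.

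Age was then compared in the HZ. In the rat HZ, 8 of 40 members (20%) were higher at 4 weeks and 0 were lower, where 6.67% of all tested genes were higher and 7.06% were lower. In the mouse HZ, 2 of 44 members were higher and 1 was lower, where 8.83% of all tested genes were higher and 6.72% were lower. Median log2 fold changes were 0.40 over rat members and 0.09 over all rat genes, and 0.09 over mouse members and 0.17 over all mouse genes. Rat Rpa1 had 101, 91.8, 107, 67.7 and 54.2 in 4-week libraries, against 39.6, 24.8, 20.1, 51.3 and 18.5 in 1-week libraries (log2 fold change 1.49 ± 0.37 SE, adjusted p = 0.00579). Rat Mcm6 had 236, 194, 245, 304 and 180.2 in 4-week libraries, against 72.3, 153, 26.8, 252 and 66.4 in 1-week libraries (log2 fold change 1.38 ± 0.34 SE, adjusted p = 0.00593). Rat Pcna had 807, 902, 807, 626 and 592 in 4-week libraries, against 389, 185, 518, 646 and 338 in 1-week libraries (log2 fold change 0.94 ± 0.25 SE, adjusted p = 0.00928). Of these, Rpa1 had ages that did not overlap, and the 1-week HZ replicate 4 reached into the 4-week range of Mcm6. The other 5 were Mcm3, Tk1, Gins3, Cdc45 and Mcm5, at 1.15 ± 0.33, 0.96 ± 0.28, 1.80 ± 0.56, 1.34 ± 0.43 and 1.302 ± 0.45 (SE, adjusted p = 0.017, 0.0207, 0.0285, 0.034 and 0.0498), and each of the 5 lost its call without some library, at adjusted p up to 0.0906, 0.101, 0.106, 0.111 and 0.234.

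The mouse HZ members called with age were Rrm1 and Gins1, higher, and Rfc5, lower. Mouse Rrm1 had 429.5, 581, 673, 906 and 752 in 4-week libraries, against 397, 374, 326, 300 and 546 in 1-week libraries (log2 fold change 0.77 ± 0.22 SE, adjusted p = 0.0149). Mouse Gins1 had 28.9, 45.2, 79.7, 11.8 and 55.6 in 4-week libraries, against 37.3, 3.94, 18.4, 0 and 10.4 in 1-week libraries (log2 fold change 2.18 ± 0.66 SE, adjusted p = 0.0219). Mouse Rfc5, a clamp loader subunit, had 133, 129.7, 68.5, 151 and 73.7 in 4-week libraries, against 232, 222, 241, 316 and 104 in 1-week libraries (log2 fold change -0.99 ± 0.31 SE, adjusted p = 0.0287). Ages overlapped for all 3, and single libraries raised adjusted p to 0.057 for Rrm1 (without 4-week HZ replicate 4), 0.0876 for Gins1 and 0.0895 for Rfc5. The mouse count of 3 became 1 without 4-week HZ replicate 3 and 5 without 1-week HZ replicate 1, 2 or 5, and the rat count of 8 became 4 without 1-week HZ replicate 3 or 4-week HZ replicate 1 and 5 without 1-week HZ replicate 5 or 4-week HZ replicate 3. Marrow markers moved with age here. B lymphocyte markers summed to 2468 to 5535 in the mouse 4-week HZ, against 855 to 2445 in the 1-week HZ, and to 891 to 1682 in the rat 4-week HZ, against 308 to 856 in the 1-week HZ. With B lymphocyte, erythroid and granulocyte markers as covariates, 0 members were called in either species. The B lymphocyte sums were apart between ages in both species, so this fit cannot separate them from age. With only the compared groups fitted, 1 rat and 0 mouse members were called, and limma-voom called 2 and 0.

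Between bones, the PZ of the phalanx and of the tibia gave 0 calls among members in either species. In the mouse, 3.23% of all tested genes were higher and 1.86% were lower in the phalanx PZ, and in the rat 6.78% were higher and 3.67% were lower. By limma, 0 of 44 mouse members and 3 of 40 rat members had an unadjusted p under 0.05. Array quality weights called 2 rat members, scaling by the total without Rn45s called 1, and leaving out tibia PZ replicate 5 called 1. The median log2 fold change was 0.01 over mouse members and 0.03 over rat members. Mouse Gins1 was at the low end, with 42.1, 38.5, 27.7 and 31.1 in phalanx libraries, against 59.4, 46, 56.7, 63.1 and 95 in tibia libraries (log2 fold change -0.84 ± 0.70 SE, adjusted p = 0.652). Rat Tyms was at the high end, with 105, 78.2, 149, 98.2 and 215 in phalanx libraries, against 65.4, 47, 20, 38.6 and 86.3 in tibia libraries (log2 fold change 1.37 ± 0.81 SE, adjusted p = 0.335). Mouse Pcna had 280.4, 428, 520.2 and 454 in phalanx libraries, against 333, 336, 496, 416 and 624 in tibia libraries (log2 fold change -0.06 ± 0.26 SE, adjusted p = 0.955), and rat Mcm2 had 447, 509, 435, 791 and 946 in phalanx libraries, against 895, 769, 489, 518 and 661 in tibia libraries (log2 fold change -0.13 ± 0.23 SE, adjusted p = 0.808). Pcna and Mcm2 overlapped between bones, while every phalanx library lay below every tibia library for mouse Gins1.

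In the HZ, most members called between bones were higher in the phalanx, and the rat held more of these calls. A negative fold change was seen for 1 of 40 rat members and 11 of 44 mouse members. In the rat, 18 of 40 (45%) were higher and 1 was lower, where 19.7% of all tested genes were higher and 16.3% were lower. In the mouse, 7 of 44 (15.9%) were higher and 0 were lower, where 9.77% of all tested genes were higher and 9.2% were lower. Median log2 fold changes were 0.84 over rat members and 0.13 over all rat genes, and 0.33 over mouse members and 0.13 over all mouse genes. Rat Mcm2 had 649, 402, 812, 707 and 909 in phalanx libraries, against 331, 214, 273, 241 and 296 in tibia libraries (log2 fold change 1.32 ± 0.23 SE, adjusted p = 2.85e-05). Rat Chaf1b had 343, 219.6, 346, 344 and 447 in phalanx libraries, against 164, 80.2, 58.1, 177 and 78.7 in tibia libraries (log2 fold change 1.70 ± 0.30 SE, adjusted p = 4.92e-05). Rat Tk1 had 791, 633, 1367, 853 and 929.8 in phalanx libraries, against 496, 474, 107, 430 and 236 in tibia libraries (log2 fold change 1.54 ± 0.28 SE, adjusted p = 7.97e-05). These 3 had bones that did not overlap.

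Rat Cdc45 had 117, 58.5, 112, 109.6 and 90.5 in phalanx libraries, against 53.4, 7.64, 13.4, 45.6 and 9.26 in tibia libraries (log2 fold change 2.26 ± 0.43 SE, adjusted p = 0.000127). Rat Mcm5 had 144, 191, 119.7, 118 and 168 in phalanx libraries, against 37.9, 47.8, 4.47, 118 and 26.2 in tibia libraries (log2 fold change 2.19 ± 0.45 SE, adjusted p = 0.000288). Both had every phalanx library above every tibia library, for Mcm5 by 118.4 in the lowest phalanx library, against 118.2 in the highest tibia library. The other rat calls were Mcm3, Mcm4, Mcm6, Orc1, Gins2, Gins3, Pole, Pcna, Rfc2, Rfc3, Rpa1, Tyms and Ccne2, higher, from 0.69 ± 0.25 for Pcna to 2.60 ± 0.81 for Tyms, whose tibia HZ libraries include 1 at 0. Gins4 went the other way, with 204, 112, 56.1, 98.4 and 129.6 in phalanx libraries, against 217, 89.8, 239, 269 and 284 in tibia libraries (log2 fold change -0.88 ± 0.33 SE, adjusted p = 0.0331). Of the 19 rat calls, 12 held when each library was left out, and Rfc3, Gins3, Pcna, Gins4, Orc1, Ccne2 and Rfc2 reached adjusted p of 0.228, 0.188, 0.159, 0.129, 0.0899, 0.0819 and 0.0529.

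Mouse Rrm1 had 658, 1055, 887, 1064 and 572 in phalanx libraries, against 397, 374, 326, 300 and 546 in tibia libraries (log2 fold change 1.11 ± 0.22 SE, adjusted p = 0.000385), with bones that did not overlap. Mouse Gins1 had 23.7, 74.2, 37.2, 55.7 and 67.7 in phalanx libraries, against 37.3, 3.94, 18.4, 0 and 10.4 in tibia libraries (log2 fold change 2.54 ± 0.66 SE, adjusted p = 0.0061). Mouse Cdt1 had 190.1, 169, 148, 462 and 129 in phalanx libraries, against 66.7, 29.5, 43.6, 128 and 183 in tibia libraries (log2 fold change 1.41 ± 0.43 SE, adjusted p = 0.0181). Gins1 and Cdt1 overlapped between bones, and phalanx HZ replicate 4 was far above the rest for Cdt1. Orc6, Rpa2, Pold1 and Mcm4 were also higher, at 0.89 ± 0.30, 1.35 ± 0.45, 1.25 ± 0.44 and 0.69 ± 0.25 (SE, adjusted p = 0.0329, 0.034, 0.0432 and 0.0459). Mcm4 was the member higher in both species (log2 fold change 0.81 ± 0.22 SE, adjusted p = 0.00485 in the rat). Without single libraries, Rrm1 and Gins1 kept their calls, and adjusted p reached 0.0746 for Cdt1, 0.096 for Orc6, 0.155 for Rpa2, 0.191 for Pold1 and 0.129 for Mcm4. The count of 7 became 4 without phalanx HZ replicate 2, phalanx HZ replicate 3 or tibia HZ replicate 3, 15 with scaling by the total without Rn45s, 3 by limma-voom and 1 with only the compared groups fitted. The scaling without Rn45s also raised the count of all mouse genes called higher to 4118, against 1486 in the main fit. The rat count of 19 became 12 with only the compared groups fitted.

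Markers of other cells moved with the comparison of HZ between bones. All 7 macrophage genes were listed in both species and summed to 9821 to 19559 in the rat phalanx HZ, against 2739 to 9493 in the tibia HZ, and to 6435 to 14333 in the mouse phalanx HZ, against 3912 to 5573 in the tibia HZ. Endothelial markers (5 of 5 listed, with no gene at 0 throughout) summed to 9812 to 15028 in the rat phalanx HZ, against 1633 to 9881 in the tibia HZ, and to 5710 to 10927 in the mouse phalanx HZ, against 2715 to 14120 in the tibia HZ, where 0 of 5 were called. Osteoblast markers summed to 349617 to 844857 in the rat phalanx HZ, against 33594 to 170080 in the tibia HZ, and to 70738 to 701069 in the mouse phalanx HZ, against 75597 to 218457 in the tibia HZ. Hypertrophic marker sums were higher in the rat phalanx HZ, at 204745 to 371503, against 18863 to 125515 in the tibia HZ. They were lower in the mouse phalanx HZ, at 110675 to 162964, against 164370 to 451757 in the tibia HZ. These sums hold unlike genes, 3 in the mouse and 2 in the rat, where Col10a1 was not listed. In the mouse, Col10a1 and Bmp2 were called lower in the phalanx HZ, and in the rat Mmp13 was called higher. Chondrocyte markers were lower in the mouse phalanx HZ, at 131973 to 1071808, against 767824 to 1784517 in the tibia HZ. They were lower in the rat phalanx HZ too, at 1261710 to 2721495, against 2495059 to 4984084. All 7 were called lower in each species, though the sums overlapped. Osteoclast sums did not overlap, at 46452 to 109189 in the mouse phalanx HZ, against 12706 to 22952 in the tibia HZ. In the rat they were 5141 to 13866, against 695 to 3987. Within the rat 1-week tibia HZ, replicates 4 and 1 had the highest scores, -0.27 and -0.52, and 8138 and 9881 endothelial counts, while replicate 3 had the lowest score, -1.39, and 1633. With macrophage, endothelial and osteoblast markers as covariates, 0 rat members and 2 mouse members were called, and with marrow markers 12 and 2 were. Macrophage sums were apart between bones in both species, so the first of these fits cannot separate the markers from the bone. B lymphocyte sums were apart between bones in the rat, so the marrow fit has the same limit there. The part of these cells in the result was not tested.

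**Figure D5:**
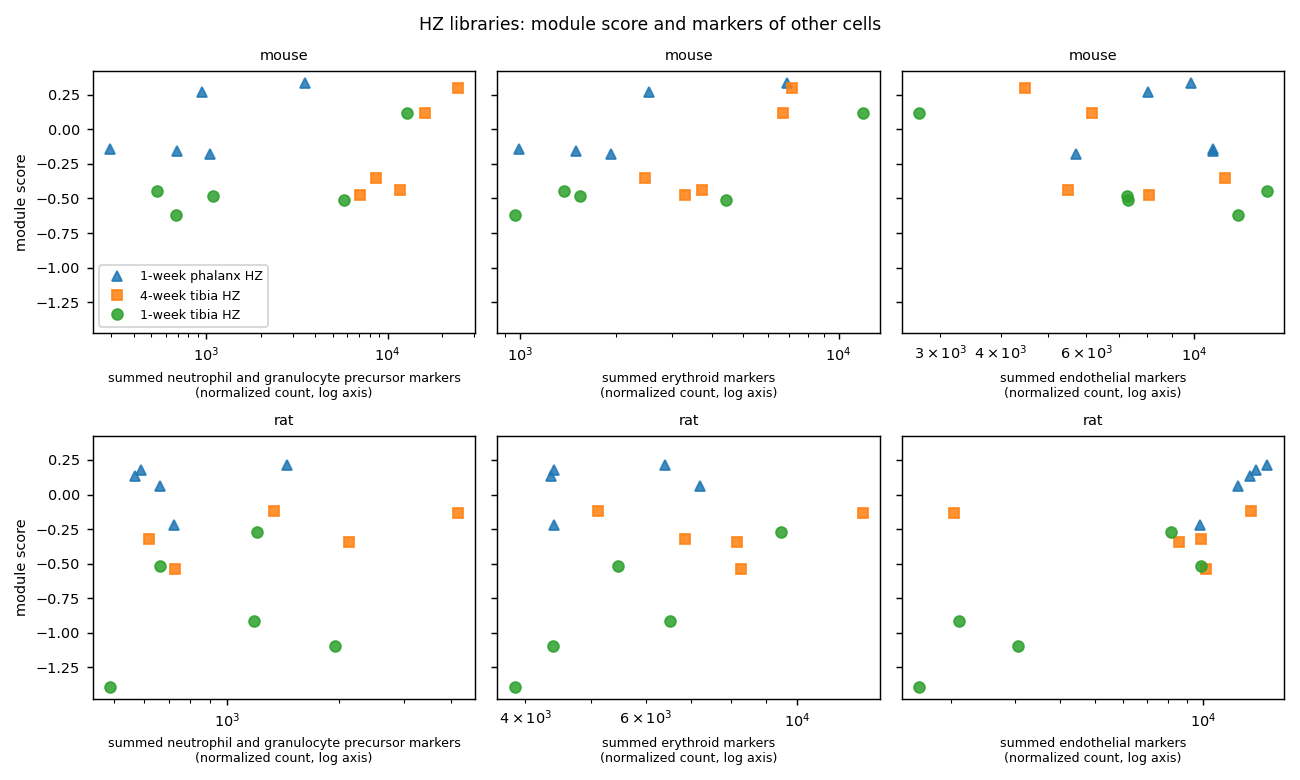
Mean centred log2 value of the replication genes (y axis, log2 units) against the summed normalized count of marker genes of other cells (x axes, log scale) in each HZ library, by species. Columns give neutrophil and granulocyte precursor, erythroid and endothelial markers, and triangles, squares and circles mark the 1-week phalanx, 4-week tibia and 1-week tibia. Rat 1-week tibia HZ replicate 3, with 1633 endothelial marker counts, has the lowest score, -1.39.

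The other cell cycle lists were compared between bones and ages in the same way. In the HZ, 17 of 25 rat genes of G2 and mitosis were higher in the phalanx and 0 were lower, where 19.7% of all tested rat genes were higher, and 2 of 26 mouse genes (7.69%) were higher, where 9.77% of all tested mouse genes were. Rat Aurkb was at 1.72 ± 0.26 (SE, adjusted p = 3.99e-06). Of the other E2F targets, 12 of 25 in the rat and 4 of 30 in the mouse were higher in the phalanx HZ, and of the other replication genes 11 of 36 in the rat were higher and 3 were lower, and 3 of 43 in the mouse were higher and 3 were lower. With age in the rat HZ, 10 of 25 genes of G2 and mitosis were higher, where 6.67% of all tested genes were, and in the mouse HZ 1 of 26 was higher and 1 was lower. In the PZ, the lists gave 1 call between bones beyond the members in each direction in the rat, Samhd1 (1.501 ± 0.34, adjusted p = 0.00293), higher, and Plk1, a mitotic kinase (-0.78 ± 0.25, adjusted p = 0.0375), lower, and 0 calls in the mouse.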

How the data were processed

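RNA from laser-captured PZ and HZ was amplified (Ovation V2), made into Nextera XT libraries and sequenced in 50-base pairs. The submitters' processing notes and the methods name STAR 2.4.2, mm10 and rn6, featureCounts 1.4.6 and DESeq2. The annotation, the strand setting and any low-count filter were not given in the sources used here. The authors deposited log2 values of the normalized count plus 1, so the deposited log2 values were not counts. All values under 200 reads lay within 0.05 of whole reads in all 59 libraries. Normalized counts given here are the deposited values with the logarithm undone. The test was planned for linear normalized values and was run on the deposited log2 values. Fold changes are differences of group means on the log2(value + 1) scale. The added 1 shrinks the change of low genes. A library at 0 can instead pull a group mean far down, as for mouse Gmnn and Gins1 and rat Tyms in the 1-week tibia HZ.

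limma 3.58.1 (R 4.3.3, trended and robust variance) was fitted to the 6 groups of each species, with Benjamini-Hochberg adjustment over all tested genes in each of 7 comparisons and 2 zone differences. Rows with a date number for a name (26 mouse, 27 rat) and 216 second rat entries of a symbol were left out. The test was checked on simulated data, where at a log2 fold change of 1 in the 1-week tibia zone comparison it found 51.5% of changed mouse genes and 54.5% of changed rat genes. Few genes were changed there, 66 at this size in each species, whereas 3611 mouse and 2232 rat genes were called lower in the real comparison. These rates therefore do not carry over to the members. Whether HZ and PZ libraries with the same number came from 1 animal was not given, so no block was used, and if they did, p-values between zones do not take that into account. No comparison had a correlation over 0.1 in every same-numbered pair, the level asked of numbers that pair samples. In each zone comparison the same number was still the best match in 3 or 4 of the 4 or 5 pairs, so pairing was not settled. P-values measure the spread between libraries, each taken as a separate animal.

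Members and lists were chosen with earlier results of these data known. All members could be named; values in every sample were planned for a fixed set over all roles, for the 3 members with the smallest adjusted p in each comparison and for up to 3 called against the majority. Of the other lists, the genes with the smallest adjusted p were named, and a few more (Samhd1, Plk1, Top1) after their values were seen. Alternatives changed the pseudocount, filter, scaling, model, covariates or libraries. Sequences are from RefSeq.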

Additional observations from a re-analysis of the deposited data

Results flagged for a closer look

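In 408 groups of 4 or 5 values, from the module score and the 35 members given in every sample, 19 had 1 sample far from the rest, by Dixon's test, where chance alone gives about 1 in 20 groups. Mouse 1-week tibia HZ replicate 1 had a module score of 0.1161, against -0.62 to -0.44 in the other 4, and rat 4-week tibia PZ replicate 1 had 0.6236, against 0.18 to 0.25. In that mouse HZ library E2f2 also stood at 1843 normalized counts, against 33.1 to 556. In the rat 4-week tibia PZ, replicate 1 was the highest for Mcm6 (558, against 254 to 339.5) and Cdc45 (233.8, against 124 to 138).

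Other high mouse samples were Cdt1 in phalanx HZ replicate 4 (461.5, against 129 to 190.1), Fen1 in phalanx HZ replicate 5 (220.1, against 42.4 to 79.9) and E2f1 in 4-week tibia HZ replicate 4 (257.9, against 91.7 to 124). Low mouse samples were Ccne2 in 4-week tibia PZ replicate 2 (46.96, against 92.1 to 103), E2f1 in phalanx PZ replicate 4 (120.7, against 335 to 365) and E2f2 in 1-week tibia PZ replicate 2 (53.22, against 239 to 286).

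High rat samples were Mcm5 in 1-week tibia PZ replicate 1 (369.6, against 163 to 181), Mcm6 in phalanx HZ replicate 5 (372.3, against 214 to 235), Cdc6 in phalanx PZ replicate 1 (378.1, against 229 to 271) and Ccne2 in phalanx PZ replicate 5 (3694, against 790.5 to 1258). Rat 4-week tibia HZ replicate 3, the HZ library with the most proliferative markers of its group, was high for Pold1 (142.4, against 34.2 to 50.7) and Rfc3 (231.2, against 125 to 145). Low rat samples were Mcm7 in 1-week tibia PZ replicate 1 (267.5, against 550.3 to 612) and Fen1 in phalanx PZ replicate 5 (47.4, against 233 to 285).

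By limma's interaction test, the zone difference (HZ over PZ, log2) differed between the phalanx and the 1-week tibia in the mouse for Gins1 by 3.37 ± 0.96 (SE, adjusted p = 0.0205) and for Rrm1 by 1.29 ± 0.32 (adjusted p = 0.00772). In the rat it differed for Cdc45 by 2.82, Mcm5 by 2.62, Chaf1b by 2.12, Tk1 by 1.89, Mcm2 by 1.45 and Pole by 1.17 (adjusted p = 0.00162, 0.00453, 0.000796, 0.00137, 0.00191 and 0.031). Between the 4-week and the 1-week tibia, the rat zone difference differed for Rpa1 by 1.77, Pole by 1.499 and Pola1 by 0.99 (adjusted p = 0.0444, 0.0155 and 0.0352). Gins1 includes a 1-week tibia HZ library at 0.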

How the results depend on the processing

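Counts below are members called at an adjusted p under 0.05, named by comparison, with zone meaning HZ against PZ. Over the planned and added alternatives without leaving out libraries, 359 summary results stayed within 1.5 times or within the spread and 115 moved. Single called members kept their side of the threshold in 1371 cases, lost it in 336 and turned sign in 3. The causes were not tested. The 3 were in the mouse 1-week tibia zones with macrophage, endothelial and osteoblast covariates, chosen after seeing the data: Cdc45 0.91, Mcm10 0.91 and Pole 0.43. Among these covariates, summed macrophage and endothelial markers were apart between zones in every growth plate, so the fits cannot separate them from the zone. Those covariates gave, in the mouse, zones 0 (1-week), 0 (4-week) and 0 (phalanx), age 0 (PZ) and 0 (HZ), and bone HZ 2; in the rat, zones 14 (1-week), 2 (4-week) and 4 (phalanx), age HZ 0, bone HZ 0 and the zone difference with age 1; and in both species 0 for each zone comparison, age PZ and bone HZ.

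Marrow covariates gave mouse age PZ 0, age HZ 0 and bone HZ 2, rat 1-week zones 13, age PZ 2, age HZ 0, bone HZ 12 and zone difference with age 1, and both species 5 for 1-week zones and 0 for age PZ and bone HZ. Some marrow sums were apart in rat 1-week zones, rat age PZ, rat bone HZ and age HZ of both species. Those fits cannot separate the markers from the groups compared. The HZ marker covariate gave mouse age PZ 0 and bone HZ 4, and 0 in both species for each. A 2-fold minimum gave mouse 4-week zones 0, age PZ 1 and age HZ 1, rat 4-week zones 4, phalanx zones 5 and age PZ 2, and both species 4 (1-week zones), 0 (4-week zones), 1 (age PZ) and 0 (bone HZ). Array weights gave mouse 4-week zones 9, age PZ 14, age HZ 1, bone HZ 3 and zone difference with age 1, rat 4-week zones 17, phalanx zones 14, bone PZ 2 and zone difference with age 6, and both species 3 for 4-week zones. Limma-voom on recovered reads gave mouse 4-week zones 5, age PZ 7, age HZ 0, bone HZ 3 and zone difference with age 1, rat 4-week zones 13, age HZ 2 and zone difference with age 1, and both species 2, 2 and 0 for 4-week zones, phalanx zones and bone HZ.

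With only the groups compared in the fit, counts were mouse 4-week zones 9, age PZ 16, age HZ 0, bone HZ 1 and phalanx zone difference 1, rat 4-week zones 15, age HZ 1, bone PZ 1 and bone HZ 12, and both species 5, 3, 2, 4 and 0 for 1-week, 4-week and phalanx zones, age PZ and bone HZ. Adding the replicate block to that fit gave mouse 4-week zones 10, age PZ 14, age HZ 0, bone HZ 1 and phalanx zone difference 0, rat 4-week zones 20, age HZ 2 and bone HZ 12, and both species 4, 2, 4 and 0 for 4-week and phalanx zones, age PZ and bone HZ. Same-numbered HZ and PZ samples correlated at -0.01 to 0.286, with the own number best in 3 or 4 pairs of each zone comparison, a hint of pairing from the data below the level asked for.

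No filter gave both species 1 (age PZ) and 0 (bone HZ), no trend or robust fit gave mouse age PZ 0 and bone HZ 4 and both species 0 for each, and a pseudocount of 16 gave a mouse zone difference with age of 1. Quantile scaling gave mouse 4-week zones 4 and bone HZ 3, rat 4-week zones 14 and phalanx zones 14, both species 2 (4-week zones) and 0 (bone HZ), and a rat phalanx zone score difference of -0.54. Scaling by the total without Rn45s gave mouse age PZ 5, bone HZ 15, zone difference with age 5 and phalanx zone difference 5, rat age HZ 5 and bone PZ 1, both species 0 (4-week zones) and 8 (bone HZ), and score differences of -0.0497 (mouse phalanx zones), -0.60 (mouse age PZ), 0.80 (mouse bone HZ) and -0.22 (rat age PZ). It also moved the median of all mouse genes to 0.51 for bone HZ, against 0.13, and that of all rat genes to 0.40, against 0.13. All mouse genes called higher for bone HZ numbered 4118 under it, against 1486, and those lower with age in the PZ 1329, against 515. Under quantile scaling, 1427 of all rat genes were lower for 4-week zones, against 920. All-gene counts were kept for these scalings and not for the other alternatives.

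Leaving out 1 library at a time gave, in the mouse, 1 to 3 for 4-week zones, 0 to 4 for age PZ, 1 to 5 for age HZ, 4 to 8 for bone HZ and 0 to 1 for the zone difference with age, in the rat, 5 to 12 for phalanx zones, 4 to 10 for age HZ, 0 to 1 for bone PZ and 1 to 5 for the zone difference with age, and in both species 5 to 10 for 1-week zones, 0 to 1 for 4-week zones, 0 to 3 for age PZ and 0 to 3 for bone HZ. Low counts and 4 or 5 libraries a group limit what can be detected in the 1-week tibia HZ, the shallowest group outside Rn45s.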
